A study of Mus musculus with 6 samples.

Results

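CA3 pyramidal layer spots were sought in 6 coronal mouse brain sections by a score of 4 genes taken as markers of this layer, Iyd, Coch, Prss23 and Nectin3. In every spot the level of each gene in CPM (its unique molecular identifiers, UMIs, per 1000000 of the spot) was divided by the mean of the section, the 4 ratios were averaged, and the highest 0.7% of the spots of each section were taken. The rule gave 142 of 20336 spots, namely 25 and 23 at P21, 20 and 23 in adult and 26 and 25 in aged sections. They are called score spots here, because the data went against the label, as described below, and a second set of the same size, the band spots, was drawn from other CA3 genes.

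All sections came from untreated male C57BL/6J mice, with 1 mouse per section and 2 mice per age, and were formalin-fixed and paraffin-embedded (FFPE). P21 mice were 21 days old, adult mice 12 to 15 weeks and aged mice 28 months. P21 and adult sections were placed on Visium v1 slides directly, whereas the probes of aged sections were moved to Visium v2 slides by a CytAssist instrument. The study also describes an enhanced probe design for the aged sections. When aged and adult sections are compared, an effect of age therefore cannot be told apart from one of the slide version or probe design. Spots of the aged sections shared 0 barcodes with those of the other sections. Each spot covers a small disc of tissue and holds RNA of several cells, so that fewer cells of a type and less RNA per cell cannot be told apart. The anterior-posterior level of each section was not given in the sources used here. The median number of UMIs per spot was 23543.5 and 12074.5 for P21, 16740 and 14603 for adult and 19580 and 25535 for aged sections.

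CA3 pyramidal neurons are large excitatory neurons that receive strong input from dentate gyrus (DG) granule cells through the mossy fibres, excite each other through recurrent collaterals and project to CA1 through the Schaffer collaterals. The subfield is known for its part in the storage and recall of associations and for its sensitivity to seizures. Its neurons are known for a high content of kainate receptor subunits, among them that encoded by Grik4, and for adhesion proteins at mossy fibre contacts, among them Nectin3.

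The score spots were scattered over the sections and did not form a layer. Of the 142 spots, 113 (79.6%) had no neighbour in the set, and they spanned 70, 62, 60, 43, 42 and 72 rows of the spot grid in the P21, adult and aged sections in that order. Iyd, which encodes iodotyrosine deiodinase, gave 85.3% to 95.5% of the members' score in the 6 sections. It was a sparse gene, with a UMI in 907 of all 20336 spots but in 138 of the 142 members. Between 9 and 18 members of each section held exactly 1 Iyd UMI. The lowest score inside the set and the highest outside it lay close together in every section, for example 6.20 and 6.14 in P21 section 1 and 10.91 and 10.82 in aged section 2.

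**Figure D1:**
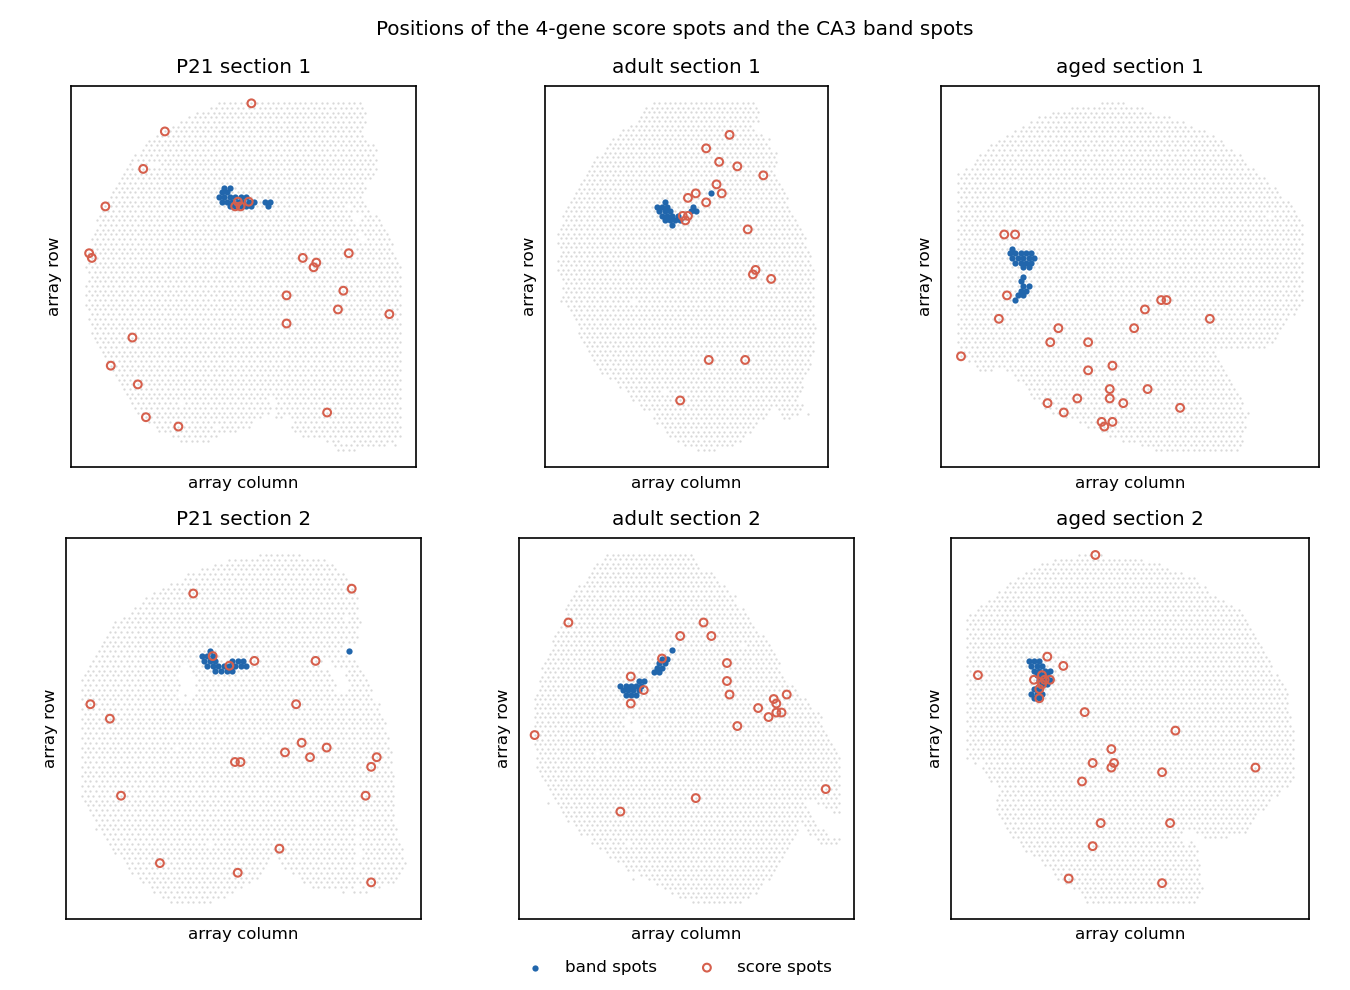
Position of the score spots and the band spots on the spot grid of each section, with P21, adult and aged sections in columns. The score spots lie scattered (113 of 142 without a neighbour in the set), whereas the band spots lie together (3 of 142 without a neighbour), apart from single spots such as that of P21 section 2.

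Other CA3 genes did not place the score spots in CA3. Of 11 CA3 genes outside the score, 5 were higher in the score spots than in all other spots in each of the 6 sections, and the median ratio over the 11 genes was 1.64. Grik4 was at 69.0 and 59.1 CPM in the P21 sums, 83.9 and 44.6 in the adult sums, and 3.2 and 148.4 in the aged sums. The 2 aged sums were therefore the lowest and the highest of the 6. Prkcd, a protein kinase C gene that marks many thalamic relay neurons, was at 723, 750, 595, 1142, 1562 and 577 CPM in the score spots and at 312 to 421 CPM in all other spots, so that it was higher in the score spots of each section. Of 6 thalamic genes, 2 were higher in the score spots of all 6 sections, with a median ratio of 1.71. The genes that led the score spots over all other spots were Iyd, Shisa6, Cabp7, Bok and Prkcd. These values describe the set and carry no test, because the spots were chosen by their expression.

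Band spots were therefore drawn after the data had been seen, with the same share of spots and with the 11 CA3 genes that the score had left out (Grik4, Bok, Cpne4, Plagl1, Mas1, Trps1, Spock1, Galnt3, Shisa2, Cdh24 and Homer3), each spot being pooled with its neighbours. They also number 142, of which 13 are score spots, and 3 of them had no neighbour in the set. The rows they spanned were 5, 5, 8, 11, 12 and 9, and the columns 20, 54, 22, 21, 10 and 9, with 1 spot of the P21 section 2 band lying apart from the others. Only 18 of the score spots (12.7%) lay in or next to the band. Of the 11 genes, 10 were higher in the band than in all other spots in every section, and the exception was Plagl1. Homer3, a postsynaptic scaffold gene, was at 194, 223, 199, 207, 251 and 332 CPM in the band and at 16 to 21 CPM elsewhere, with both aged sums above the P21 and adult sums, which overlapped. These genes chose the band, so that their values are a description.

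Of the 4 genes of the score, which had no part in the choice of the band, 3 were higher in the band than in all other spots of each section. Nectin3 was at 157 and 171 CPM in the P21 band sums, 191 and 198 in the adult band sums, and 195 and 216 in the aged band sums, against 24 to 45 CPM in all other spots. Iyd was at 35.1, 19.9, 14.2, 21.1, 21.4 and 31.7 CPM in the band and at 0.9 to 3.0 CPM elsewhere. Prss23, a serine protease gene, was higher in the band in each section, at 34.3 against 31.1 CPM in P21 section 1 and at 60.2 to 77.5 against 28.2 to 42.5 CPM in the other 5 sections. Coch, which encodes the matrix protein cochlin, went the other way, at 0 to 9.9 CPM in the band and 21.9 to 34.1 CPM elsewhere. Coch was thus lower in the band than in the other spots of each section, although it is 1 of the 4 genes of the score. Genes that led the band over all other spots were Klk8, Homer3, Neurod6, Il16 and Npy2r, the last a neuropeptide Y receptor gene. Prkcd was at 102 to 215 CPM in the band, and the 6 thalamic genes had a median ratio of 0.11 there, with 0 of 6 higher in all sections. Fibcd1, a CA1 gene, was at 1.2 to 22.0 CPM in the band, and C1ql2, a granule cell gene, at 2.0 to 13.9 CPM. Of 7 CA1 genes, 6 were lower in the band than in all other spots of all 6 sections, and 1, Wnt2, was higher (median ratio 0.28). Of 9 granule cell genes, 4 were lower and 1, Lct, was higher in all 6 sections (median ratio 0.38).

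**Figure D2:**
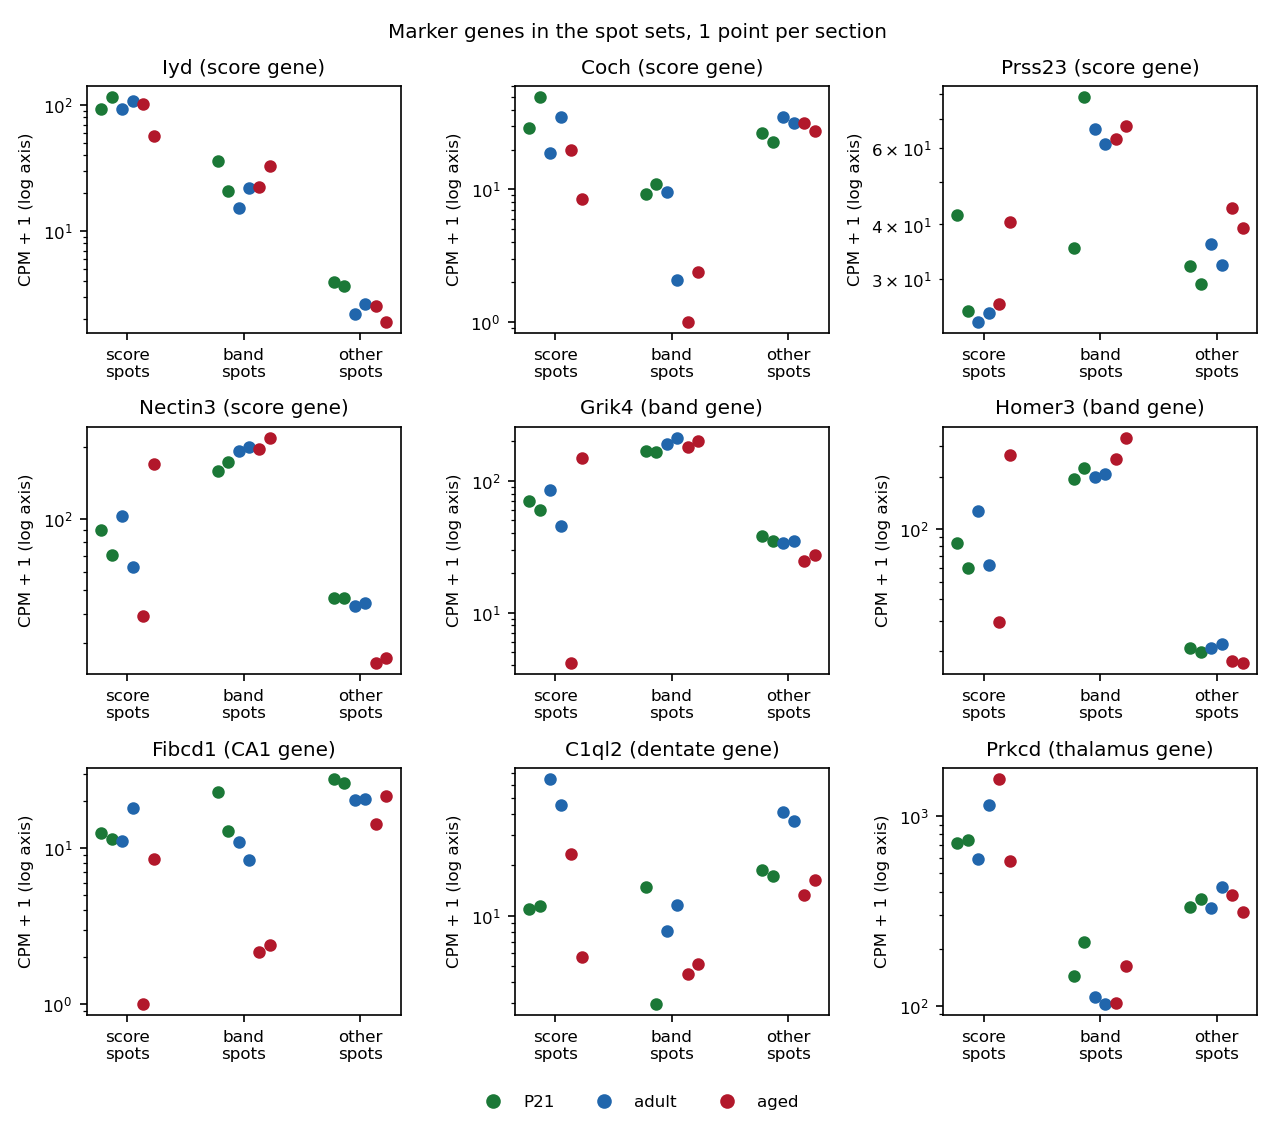
Levels in CPM plus 1 (log axis) of CA3 and other marker genes in score spots, band spots and all other spots, with 1 point per section. Nectin3 and Homer3 were higher in the band than in all other spots of each section, while Prkcd was higher in the score spots and lower in the band.

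The sums differed in depth and in the agreement between sections of an age. Score sums held 608283 and 287816 UMIs at P21, 393265 and 291659 for adult, and 316220 and 1064873 for aged sections. Band spots gave 35.8% and 14.5% of these UMIs at P21, 0% and 3.95% for adult, and 0% and 67.3% for aged sections, so that the 2 aged score sums were drawn from different places. Band sums held 1225853 and 503322, 703386 and 946218, and 1727152 and 2173976 UMIs. The correlation of log levels between the 2 sections of an age, across genes, was 0.931, 0.897 and 0.796 in the score spots and 0.959, 0.959 and 0.978 in the band spots (P21, adult, aged). Genes are not independent replicates, and these values only describe the sums. The biological coefficient of variation that edgeR estimated was 0.232 in the score spots and 0.0741 in the band spots.

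Age comparisons were made on the sums, and from here on levels of single genes are CPM scaled by TMM factors (a trimmed mean of log ratios), whereas summed levels of lists are plain CPM. In the score spots, no gene passed the test in P21 vs. adult (0 of 7793 genes, 0% called, edgeR quasi-likelihood test, adjusted p under 0.05 and fold over 1.5). The lowest adjusted p was 0.114, 320 genes had an unadjusted p under 0.05, and DESeq2 called 1 gene. The 16 myelin genes tested had a median log2 change of 1.22, against -0.01 over all genes tested, and 13 of them lay above both adult sums in both P21 sums, compared with 19.2% of all genes. None of these 13 passed the test. Both globin genes tested lay above the adult sums too, with a median log2 change of 2.92. All 6 sums shared 1 estimate of the spread, that between the aged sums included, and without aged section 1 or aged section 2 the number of genes called was 66 or 64.

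In aged vs. adult, the score spots gave 1 called gene of 7793 (0.0128%), C4b, which encodes complement component 4 (chromosome 17, 34728380 to 34743882, GRCm38). C4b was at 15.4 and 23.4 CPM in the adult sums and at 314 and 302 CPM in the aged sums, with 13.3 and 3.36 CPM at P21. Both aged sums lay far above the other 4. The log2 change was 4.0 ± 0.39 (SE, n = 2 per age, edgeR quasi-likelihood test, adjusted p = 0.0206), and the rest of the section moved by 2.88. The call was lost without P21 section 1, P21 section 2, adult section 1 or adult section 2, where the log2 change was 3.69 to 4.28, and without aged section 1 or aged section 2 the number of genes called was 416 or 620. Of all genes, 577 had an unadjusted p under 0.05, and DESeq2 called 2. Gfap, the intermediate filament gene of astrocytes, was at 259 and 164 CPM in the adult and 664 and 459 CPM in the aged score sums and did not pass (adjusted p = 0.52 by edgeR). The 4 reactive astrocyte genes tested had a median log2 change of 1.77 against 0.04 over all genes, with all 4 above both adult sums in both aged sums (19.8% of all genes were), and the 7 immediate early genes tested had a median of 0.58 with 0 calls. The 16 myelin genes had a median of 0.27 and 0 calls, with 5 above and 2 below both adult sums in both aged sums, whereas their median in the aged band described below was -0.67.

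Whether these changes differed from those elsewhere was tested with the section as a block. Against the rest of the section, 0 genes passed for P21 (388 at an unadjusted p under 0.05 by edgeR) and 0 for aged mice (647). Against CA1 and DG spots drawn by the same kind of score, 0 genes passed in P21 vs. adult (809 at an unadjusted p under 0.05 by edgeR). In aged vs. adult, 3 of 10791 genes passed (0.0278%), Kcnma1 toward a higher level in the score spots (0.00927%) and Ngef and Gad2 toward a lower one (0.0185%). Ngef, a guanine nucleotide exchange factor gene, was at 202 and 177 CPM in adult and 63.4 and 80.9 CPM in aged score spots. It was at 268 and 236 and then 212 and 308 CPM in CA1, where the ages overlapped, and at 274 and 268 and then 285 and 292 CPM in DG. Kcnma1, a potassium channel gene, went from 125 and 120 to 239 and 255 CPM in the score spots. Gad2, which encodes an enzyme of GABA synthesis, went from 113 and 207 to 133 and 62.4 CPM in the score spots, where the ages overlapped, and from 119 and 96.4 to 361 and 196 CPM in CA1. DESeq2 was not run for these differences. Without P21 section 1, P21 section 2 or adult section 2, 0 genes passed, and without aged section 1 or aged section 2 the counts were 230 and 319.

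In the band spots, genes of myelin, of immature neurons and of globins were among those that differed between P21 and adult. Of 9815 genes tested, 139 were higher (1.42%) and 50 lower (0.509%) at P21, with 1520 genes at an unadjusted p under 0.05 and a median log2 change of -0.03 over all genes. DESeq2 called 52 higher and 15 lower. Of 46 genes named by rule and called at P21, DESeq2 did not call 21. Without adult section 2 the counts were 46 higher and 21 lower, without P21 section 1 they were 40 and 13, and without P21 section 2 they were 86 and 34.

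Of 16 genes of mature oligodendrocytes and myelin tested, 12 rose and 0 fell at P21 (1.42% of all genes rose), with a median log2 change of 1.37, and 16 of 16 had both P21 sums above both adult sums (21.2% of all genes did). Mbp, the myelin basic protein gene, was at 3796 and 4488 CPM at P21 and 2270 and 1407 CPM in adults, a log2 change of 1.17 ± 0.13 (SE, n = 2 per age, adjusted p = 1.36e-06 by edgeR). Ugt8a, an enzyme of galactolipid synthesis, rose from 25.7 and 31.8 to 113 and 128 CPM. Cldn11, Mog and Mal rose by 1.91, 1.84 and 1.70 on the log2 scale. Opalin, also an oligodendrocyte gene, was at 98.3 and 107 CPM at P21 and 91.4 and 61.5 CPM in adults and did not pass (adjusted p = 0.278 by edgeR). The rest of the section moved by 0.85 for Mbp.

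Of 6 genes of newly formed oligodendrocytes tested, 3 rose (Gpr17, Enpp6 and Tmem163, against 1.42% of all genes), with a median log2 change of 1.78. Gpr17, a receptor gene of cells on the way from precursor to oligodendrocyte, was at 43.6 and 38.8 CPM at P21 and at 7.14 and 3.18 CPM in adults (log2 change 3.08 ± 0.50 (SE, n = 2 per age), or 3.69 without adult section 1). Enpp6 and Tmem163 rose by 2.73 and 1.72. The call for Enpp6 was lost without P21 section 1 (2.75) and without adult section 2 (3.08). Of 4 precursor genes tested, 0 passed, with a median log2 change of 0.83.

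Of 12 growth genes of immature neurons tested, 4 rose at P21 (1.42% of all genes did), with a median log2 change of 0.64. Marcksl1, which encodes an actin-regulating kinase substrate, was at 105 and 81.5 CPM at P21 and at 14.3 and 15.9 CPM in adults, a log2 change of 2.66 ± 0.27 (SE, n = 2 per age, adjusted p = 1.85e-07 by edgeR). Nnat rose from 700 and 660 to 1071 and 1201 CPM. Sox11, a transcription factor of young neurons, rose by 2.02 but was not called without P21 section 1 (1.85) or adult section 2 (1.5), and Tubb2b rose by 0.62 but was not called without any 1 of the 4 P21 and adult sections (0.52 to 0.77). Gap43, the growth cone protein gene, was at 367 and 425 against 303 and 277 CPM and did not pass (adjusted p = 0.054 by edgeR).

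Synaptic and receptor genes are given by list for P21 vs. adult, where 1.93% of all genes were called in either direction. Of 15 mossy fibre synapse genes, 0 passed, with a median log2 change of 0.12. Slc17a7, the vesicular glutamate transporter gene, was at 4915 and 5186 CPM at P21 and 4748 and 5046 CPM in adults, and at 4883 and 4917 CPM in aged mice. Kainate receptor genes (0 of 6), AMPA receptor genes (0 of 11), metabotropic glutamate receptor genes (0 of 7), GABA-A receptor genes (0 of 10), potassium and HCN channel genes (0 of 15) and sodium channel genes (0 of 8) gave no call. A missed threshold does not show that these levels were equal. Among NMDA receptor genes, Grin2c rose (1 of 5), from 15.7 and 15.9 to 35.7 and 34.9 CPM. Its adjusted p of 0.0496 by edgeR was close to the threshold, and the call was lost without any 1 of the 4 P21 and adult sections (log2 change 1.14 to 1.17).

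Calcium and matrix genes gave 4 calls among 20 tested, 2 in each direction (1.42% of all genes were called higher and 0.509% lower). Of 13 calcium handling genes, Calb1, which encodes the buffer calbindin, was higher at P21, at 67.4 and 60.1 against 42.8 and 21.2 CPM. Cacna1e, an R-type calcium channel gene, was lower, at 110 and 97.0 against 177 and 164 CPM. Calb1 was not called without P21 section 1 (0.96), P21 section 2 (1.13) or adult section 2 (0.60), and Cacna1e not without any 1 of the P21 and adult sections (-0.81 to -0.63). Of 7 proteoglycan and perineuronal net genes, Bcan (brevican) rose by 0.83 and Hapln4, a link protein gene, fell by 0.94. Hapln4 was at 202 and 190 CPM at P21 and at 350 and 405 CPM in adults, and its call held without each section in turn, whereas that of Bcan was lost without P21 section 1 (0.71).

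Other lower genes included Il33, Ptgds, Stac2 and Egr1. Il33, an alarmin that oligodendrocytes and astrocytes hold in the nucleus, was at 11.9 and 13.6 CPM at P21 and at 40.0 and 36.0 CPM in adults. Ptgds, prostaglandin D synthase, was at 51.5 and 48.5 against 133 and 109 CPM. Stac2 was at 95.9 and 83.4 against 201 and 181 CPM, with a log2 change of -1.06 ± 0.17 (SE, n = 2 per age, adjusted p = 3.47e-04 by edgeR). Egr1, an immediate early gene, was at 53.9 and 54.3 against 134 and 89.0 CPM and was not called without P21 section 1 (-1.01) or adult section 1 (-0.71). The largest falls by rule were H2afj (-1.95), Il33 (-1.60), Sdhaf3 (-1.35), Ptgds (-1.24), Wdr17 (-1.20), Zc3h12b (-1.16), Ifi27 (-1.16), Stac2 (-1.06), Gm2115 (-1.04) and Egr1 (-1.02). H2afj, Sdhaf3, Wdr17 and Ifi27 lost the call without any 1 of the 4 P21 and adult sections, with log2 changes of -2.16 to -1.87, -2.13 to -1.10, -1.29 to -1.12 and -1.33 to -1.08, and Zc3h12b lost it without P21 section 1 (-0.84), P21 section 2 (-1.33) or adult section 2 (-0.88). Il33 lost it without P21 section 1 (-1.47), and Gm2115 without P21 section 1 (-1.02) or adult section 1 (-0.92).

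The 10 largest rises at P21 included 3 globin genes and Pmch. Hbb-bs, a beta globin gene of red blood cells (chromosome 7, 103826534 to 103828096, GRCm38), was at 628 and 566 CPM at P21, 42.8 and 27.5 CPM in adults and 1.78 and 10.4 CPM in aged mice. The 3 globin genes tested rose (log2 changes 4.13, 3.65 and 3.50 for Hbb-bs, Hba-a2 and Hbb-bt), with Hbb-bt not called without P21 section 1 (3.42). Hbb-bt passed the filter on detection through the P21 spots alone and was not tested in aged vs. adult. Its direction was therefore largely set by the filter. Hbb-bs was found in 99.9% and 98.7% of all spots of the P21 sections and in 77.0% and 52.0% of those of the adult sections. Pmch, the melanin-concentrating hormone gene of lateral hypothalamic neurons, was at 80.8 and 91.2 CPM in the P21 band and at 1.43 and 18 CPM in the adult band, and was found in 98.2% and 78.5% and in 16.6% and 59.9% of all spots of these sections. Its log2 change of 2.95 was 2.23 without adult section 1 and 5.80 without adult section 2. Calb2 (3.12), Npnt (3.03), Gsn (2.99) and Tac2 (2.99) were also among them, with Gpr17 and Enpp6. Ttr, a choroid plexus gene with a smaller log2 change (2.05), was at 2023 and 776 against 593 and 131 CPM and was not called without P21 section 1 (1.15), with 3.46 and 1.28 without adult section 1 and adult section 2, and DESeq2 did not call it. Npnt and Tac2 were not called without P21 section 1 (3.05 and 2.12). The change of Tac2 was 2.39 and 4.69 without adult section 1 and adult section 2, and that of Gsn 3.68 without adult section 1.

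How far RNA of neighbouring tissue entered the rises was not tested. Summed levels in the band were 993 and 874 CPM at P21 and 71.1 and 49.7 CPM in adults for 4 erythrocyte genes. These were the globin genes and Alas2, with Hbb-bs the most abundant. For 8 choroid plexus genes (most abundant Ttr) the levels were 2141 and 834 against 628 and 150 CPM. No gene of either list was at 0 UMIs in all sums. Over all genes, 1.42% rose at P21. The astrocyte genes Slc1a3 and Gja1 rose (2 of 8, by 0.64 and 0.70), as did Cldn5 of the endothelial list (1 of 5, by 1.34), Col1a2 of the meningeal list (1 of 2, by 2.88), Ccn3 of the CA1 list (1 of 5, by 1.26), Pcp4 of the CA2 list (1 of 5, by 0.99), Calb2 of the hilar list (1 of 2) and the metallothionein genes Mt1 and Mt2 (2 of 7, by 0.78 and 0.86). Of these, Slc1a3 (0.49 and 0.46), Pcp4 (0.96 and 0.55) and Mt2 (0.70 and 0.58) were not called without P21 section 1 or adult section 2. Gja1 (0.67 to 0.75) and Col1a2 (2.43 to 3.62) were not called without any 1 of the P21 and adult sections, Cldn5 not without P21 section 2 (0.87), adult section 1 (1.46) or adult section 2 (1.2), with 1.93 without P21 section 1, and Ccn3 not without P21 section 1 (0.86), adult section 1 (1.05) or adult section 2 (1.61). Dentate granule cell genes gave 0 of 4 calls. Thalamic genes gave 0 of 4 and had a median log2 change of 1.07. Of 18 genes that the study listed under selected enriched Gene Ontology terms as higher at P21 in CA3, 15 rose. The study chose these genes on the same samples, so that the count is not independent evidence.

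**Figure D3:**
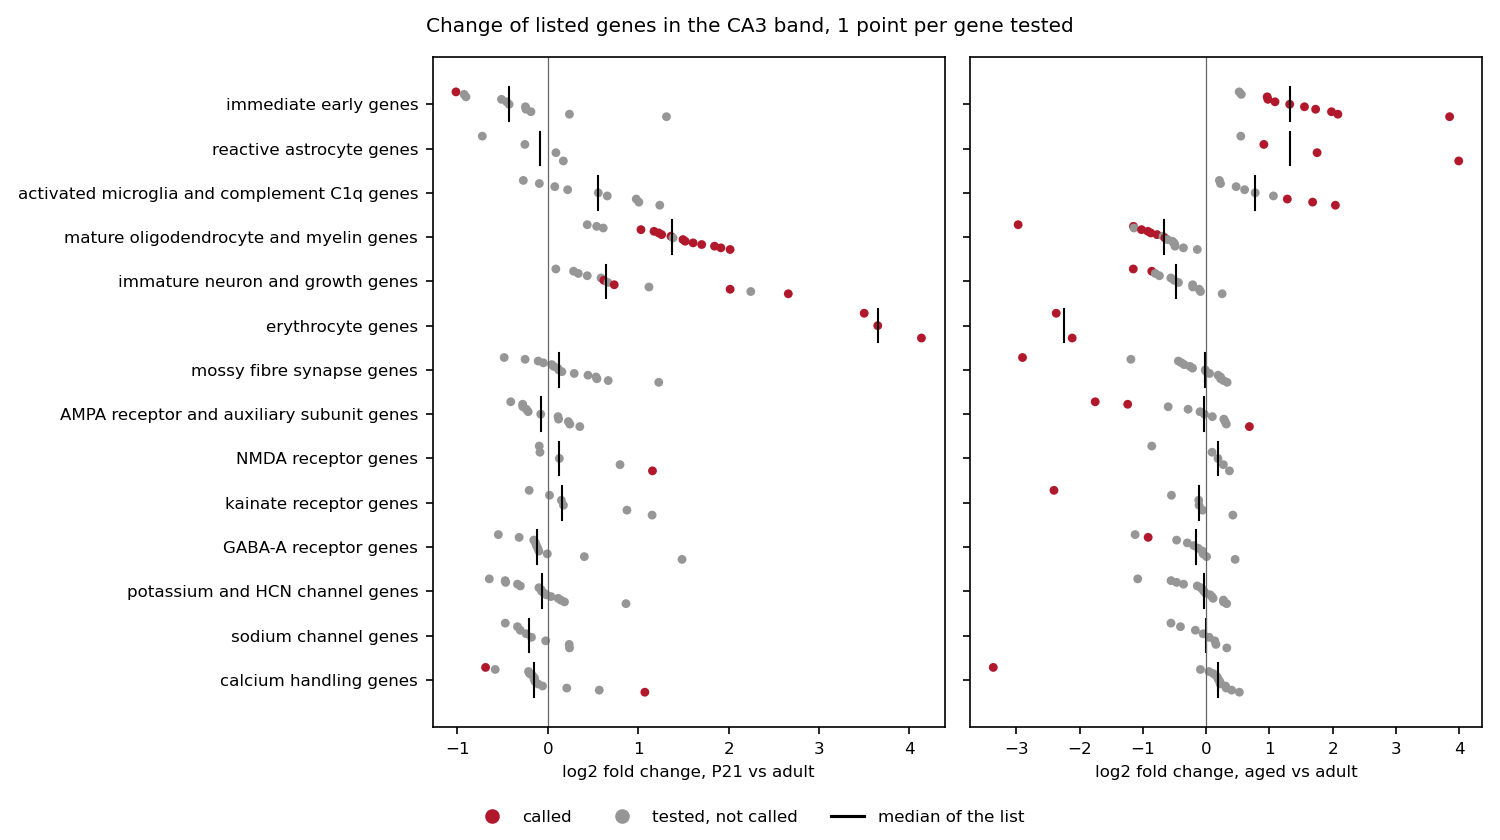
Log2 changes of the genes of selected lists in the band spots, P21 vs. adult and aged vs. adult, with 1 point per gene (red where called) and a bar at the median of each list. Myelin genes lay above 0 at P21 (median 1.37) and below 0 in aged mice (-0.67), and immediate early genes lay above 0 in aged mice (1.32).

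In aged vs. adult, genes called in the band spots included immediate early genes, complement and glial genes, myelin genes and the gene of calbindin. Of 9810 genes tested, 633 passed (6.45%), 345 higher (3.52%) and 288 lower (2.94%) in aged mice, with 2365 genes at an unadjusted p under 0.05 and a median log2 change of 0.03. With plain library sizes in place of TMM factors 302 were higher and 328 lower, so that the balance of rises and falls depended on the scaling. DESeq2 called 82 higher and 105 lower. Of 65 genes named by rule and called in aged mice, DESeq2 did not call 33. Without adult section 2, 119 were higher and 146 lower, and without adult section 1, 204 and 169.

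Of 11 immediate early genes tested, which neurons switch on within minutes of activity, 9 rose and 0 fell in aged mice (3.52% of all genes rose), with a median log2 change of 1.32, and 11 of 11 had both aged sums above both adult sums (28.9% of all genes did). Egr1 was at 462 and 466 CPM in aged and at 134 and 89.0 CPM in adult band spots, a log2 change of 2.08 ± 0.14 (SE, n = 2 per age, adjusted p = 9.67e-11 by edgeR). Arc, a gene of synaptic plasticity, was at 311 and 245 against 124 and 69.9 CPM, and Fos at 45.0 and 29.2 against 4.28 and 1.06 CPM, with a log2 change of Fos of 3.85 that was 4.99 without adult section 1 and 3.06 without adult section 2. Fosb, Npas4, Egr4, Egr3, Junb and Nr4a1 rose by 1.98, 1.73, 1.32, 1.09, 0.98 and 0.97, while Dusp1 (0.52) and Btg2 (0.56) did not pass. Without adult section 2, 6 of 12 rose, and Npas4 (1.72), Junb (0.64) and Nr4a1 (0.78) were not called. The rest of the section moved by 2.5 for Egr1 and 1.68 for Arc, and the test of the difference from the rest gave an adjusted p of 0.31 and 0.791 by edgeR.

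Among complement and reactive glia genes, C4b, Gfap and Serpina3n and 3 microglial genes rose in the aged band. C4b was at 80.5 and 133 CPM in aged and at 7.14 and 6.36 CPM in adult band spots, a log2 change of 3.99 ± 0.35 (SE, n = 2 per age, adjusted p = 1.17e-08 by edgeR), the largest rise by rule. Of 4 reactive astrocyte genes tested, 3 rose (3.52% of all genes did), with a median log2 change of 1.33. Gfap, the intermediate filament gene of astrocytes (chromosome 11, 102887336 to 102900912, GRCm38), was at 281 and 278 against 82.8 and 82.6 CPM. Serpina3n, a protease inhibitor gene, was at 72.8 and 78.7 against 45.7 and 36.0 CPM and was not called without adult section 2 (0.73). Of 9 activated microglia and C1q genes, 3 rose (Fcer1g, Laptm5 and C1qb), with a median of 0.78. Without adult section 2 none of these 3 was called, at log2 changes of 1.10, 1.55 and 1.0, and Fcer1g was not called without aged section 2 (1.92) and was at 3.75 without adult section 1. Trem2 was at 11.8 and 13.7 against 5.71 and 6.36 CPM and did not pass (adjusted p = 0.174 by edgeR). The 6 homeostatic microglia genes gave 0 calls.

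For the lists that follow, 3.52% of all genes rose in the aged band. Of the MHC class I list, H2-D1 rose (1 of 3 tested), from 12.9 and 15.9 to 29.6 and 42.9 CPM, and was not called without adult section 1 (1.2), adult section 2 (1.5) or aged section 2 (1.02). Interferon-induced genes gave 0 of 3 calls. Apoe, the main lipid carrier gene of astrocytes, was at 400 and 555 against 326 and 252 CPM and rose by 0.74, a call that was lost without adult section 2 (0.55) or aged section 2 (0.49). The heat shock genes Dnajb5 and Hspa1b rose (2 of 7), by 0.62 and 0.63, with neither call kept without adult section 1 (0.48 and 0.62) or aged section 1 (0.58 and 0.31), and that of Hspa1b not without P21 section 1 (0.62) or adult section 2 (0.63) either. Of 24 genes that the study listed under selected enriched Gene Ontology terms as higher in aged CA3, 15 rose, and these genes were also chosen on these samples.

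Of 16 myelin genes tested, 7 fell and 0 rose in the aged band (2.94% of all genes fell), with a median log2 change of -0.67. Mbp was at 1023 and 1304 CPM in aged and 2270 and 1407 CPM in adult band spots, a log2 change of -0.65 ± 0.13 (SE, n = 2 per age, adjusted p = 0.00189 by edgeR), with -0.66 in the rest of the section. DESeq2 did not call this fall of Mbp. Mag, the gene of an adhesion protein of myelin, was at 57.4 and 86.2 against 213 and 119 CPM. Its log2 change of -1.15 was called without each section in turn (-1.55 to -0.71) but not by DESeq2 or glmTreat, which tests the fold against 1.5. The 2 adult sections differed in Mbp, and without adult section 1 the number of myelin genes that fell was 3, with Mbp (-0.28) and Tspan2 (-0.60) not called, and Mbp was not called without aged section 1 (-0.50) either. Opalin had the largest fall of the list, from 91.4 and 61.5 to 8.88 and 9.89 CPM, and fell by 2.79 in the rest of the section, where it was at 174 and 161 and then 20.8 and 25.9 CPM.

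Calbindin fell in the aged band. Calb1 (chromosome 4, 15881264 to 15908064, GRCm38) was at 42.8 and 21.2 CPM in adult and at 2.96 and 2.83 CPM in aged band spots, a log2 change of -3.37 ± 0.43 (SE, n = 2 per age, adjusted p = 7.82e-06 by edgeR). The aged sums lay below all 4 others, and the call held without each section in turn. In the rest of the section Calb1 was at 208 and 211 CPM in adults and 182 and 183 CPM in aged mice, and in DG spots at 432 and 343 and then 303 and 370 CPM. Calb1 is abundant in granule cells and CA1 neurons and low in most CA3 neurons. The summed level of 9 dentate granule cell genes in the band was 85.3 and 57.1 CPM in adults and 60.2 and 58.0 CPM in aged mice, with Prox1 the most abundant and none at 0 UMIs in all sums. The 4 that were tested had a median log2 change of -0.97. For 7 CA1 genes the summed level was 93.8 and 95.1 CPM in adults and 46.9 and 43.2 CPM in aged mice. The 5 of these that were tested had a median log2 change of -1.18. The part of either list in the fall was not tested. Gap43 fell from 303 and 277 to 139 and 122 CPM (log2 change -1.15 ± 0.13 (SE, n = 2 per age)), and Nnat from 700 and 660 to 414 and 336 CPM. These were the 2 genes that fell among 12 growth genes of immature neurons, of which 0 rose.

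**Figure D4:**
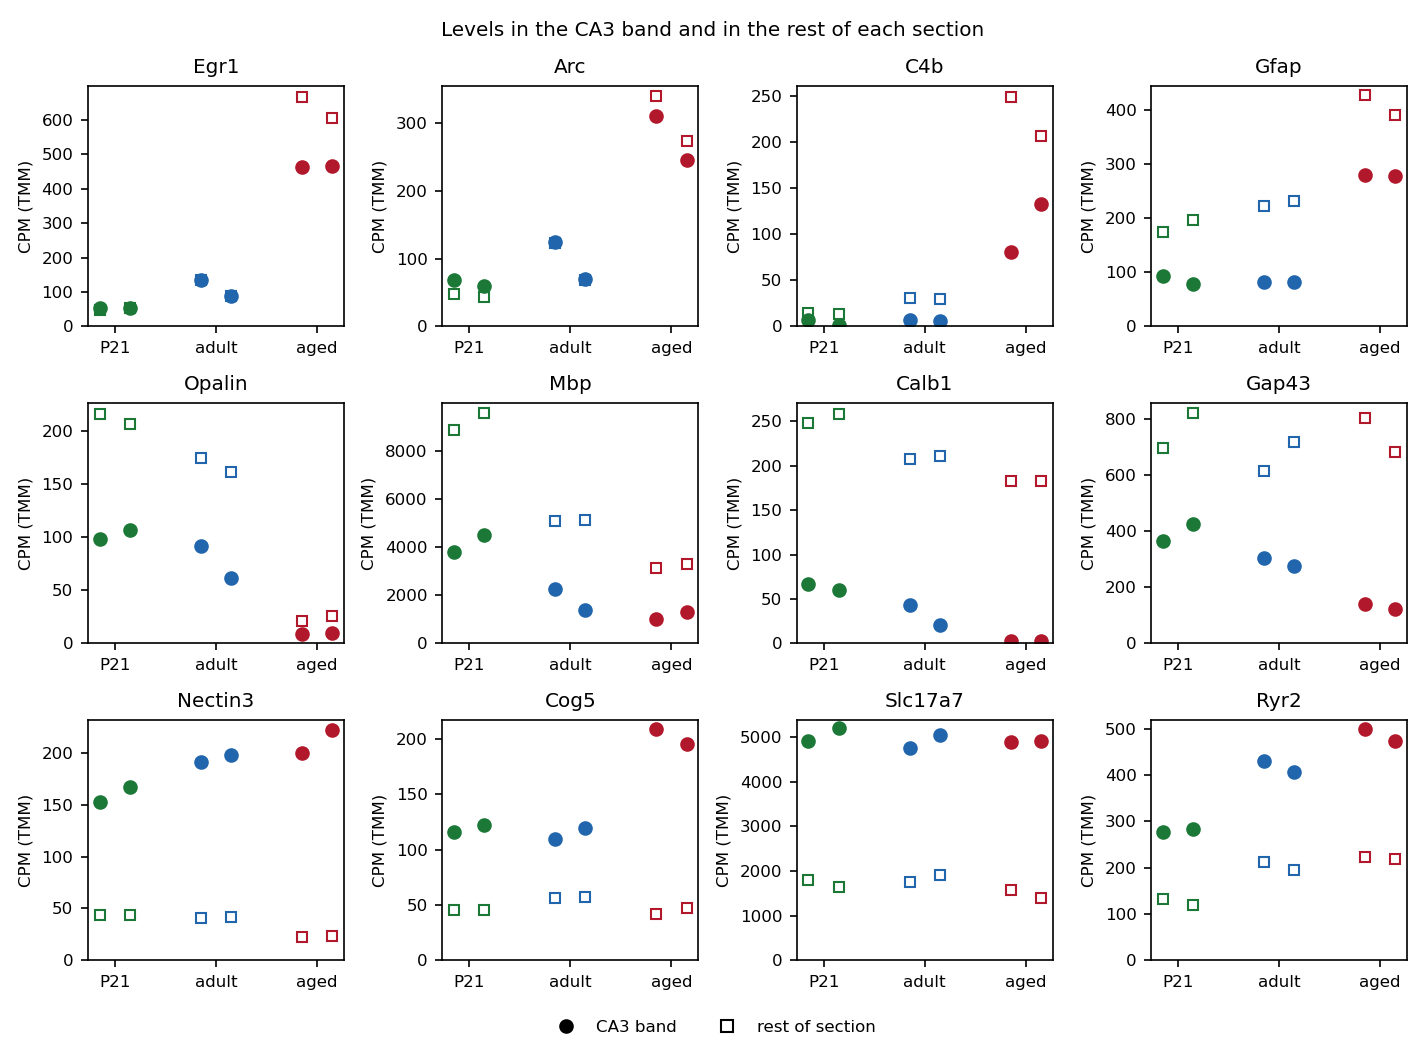
Levels in CPM after TMM scaling (linear axes from 0) of 12 genes in each section, by age, with filled circles for the band spots and open squares for the rest of the section. Calb1 fell in the aged band and was at 182 and 183 CPM in the rest of the aged sections against 208 and 211 CPM in adults, whereas Egr1 and C4b were higher in aged sections in both.

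Receptor and synapse genes of the aged band gave calls in some lists and none in others. Over all genes, 3.52% rose and 2.94% fell. Of 15 mossy fibre synapse genes, C1ql3, which encodes a secreted synaptic organizer that granule cells make, fell from 21.4 and 15.9 to 1.18 and 3.30 CPM (log2 change -2.90, or -3.81 without aged section 2), and the list had a median log2 change of -0.01. Grik3 fell among 6 kainate receptor genes, from 14.3 and 9.54 to 2.96 and 1.41 CPM, and was not called without adult section 1 (-2.13) or aged section 2 (-1.92). Of 11 AMPA receptor and auxiliary genes, Cnih2 rose from 277 and 266 to 463 and 410 CPM (not called without aged section 1, 0.58), while Cnih3 (-1.75) and Shisa9 (-1.24) fell. Cnih3 was not called without adult section 2 (-1.5), and Shisa9 not without P21 section 1 (-1.25), adult section 1 (-1.29), adult section 2 (-1.18) or aged section 2 (-0.78). Grm2 and Grm3 fell among 7 metabotropic glutamate receptor genes, Grm2 from 14.3 and 3.2 to 0 and 1.9 CPM. Grm2 was not called without P21 section 1 (-2.84) or aged section 1 (-2.03) and was at -3.66 and -6.04 without adult section 2 and aged section 2. Without adult section 1, which was at 14.3 CPM, Grm2 did not enter the test. Grm3 (-1.10) was not called without adult section 1 (-0.75), adult section 2 (-1.47) or aged section 2 (-0.77). NMDA receptor genes (0 of 5), potassium and HCN channel genes (0 of 15), sodium channel genes (0 of 8) and proteoglycan genes (0 of 7) gave no call.

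The largest falls by rule in aged mice were Cntnap2, Pmch, Tmem163, Tpbg, Calb1, C130074G19Rik, Kcnh7, Ttr, Opalin and C1ql3. Cntnap2, which encodes an axonal adhesion protein of the neurexin family, was at 37.1 and 38.1 CPM in adult and 0.59 and 0.47 CPM in aged band spots. These were 62 and 2 UMIs, a ratio of 73.3 with a 95% counting interval of 19.5 to 619. It fell in the rest of the section too, from 19.7 and 23.2 to 0.6 and 0.4 CPM. Pmch rested on 18 and 2 UMIs (ratio 21.3, 5.10 to 189). Adult section 2, at 18 CPM, held most of its adult UMIs, adult section 1 being at 1.43 CPM. Without adult section 2 it did not enter the test, and in a band drawn without pooling over neighbours its log2 change of -4.12 became 1.6232. Tpbg rested on 15 and 3 UMIs (ratio 11.8, 3.34 to 63.7), was not called without adult section 1 (-2.62), and was at -4.03, -2.62 and -6.24 without adult section 2, aged section 1 and aged section 2. Such intervals cover counting error only. Tmem163, C130074G19Rik, Kcnh7 and Ttr fell by 4.03, 3.08, 3.04 and 3.03 on the log2 scale, and the rest of the section moved by -0.86, -0.52, -0.53 and -0.05. The size of these falls depended on single sections, with Tmem163 at -4.72 without aged section 1, Kcnh7 at -4.15 and -2.30 without aged section 1 and aged section 2, and Ttr at -1.63, -3.80 and -4.21 without adult section 1, adult section 2 and aged section 2. Ttr was not called by DESeq2. Ttr was found in 99.6% and 93.6% of all spots of the adult sections and in 51.0% and 46.9% of those of the aged sections.

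Besides C4b, Fos, Egr1, Fosb and Gfap, the largest rises by rule in aged mice were Vsir, Ackr3, Sh3bp1, Gad1 and Fstl4. Ackr3, an atypical chemokine receptor gene, was at 65.1 and 57.0 against 20.0 and 14.8 CPM, with a log2 change of 1.83 ± 0.26 (SE, n = 2 per age, adjusted p = 3.20e-05 by edgeR). Gad1, which encodes an enzyme of GABA synthesis, was at 61.0 and 27.3 against 11.4 and 12.7 CPM and had no rise in a band drawn without pooling over neighbours (-0.03) and 1.14 without aged section 1. Vsir (1.94) was not called without adult section 2 (0.95) or aged section 2 (1.58) and was at 3.86 without adult section 1, and Fstl4 (1.78) not without adult section 1 (1.83) or adult section 2 (1.72).

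Some markers of other regions passed the test in the aged band, where 3.52% of all genes rose and 2.94% fell. Of 5 CA1 genes tested, Fibcd1, Ccn3 and Mpped1 fell (median -1.18), and the summed level of the list in the band was 201 and 129 CPM at P21, 94 and 95 CPM in adults and 47 and 43 CPM in aged mice, with Mpped1 the most abundant of 7 and none at 0 UMIs in all sums. Of 4 dentate granule cell genes, 0 passed, with a median log2 change of -0.97 and 2 of them below both adult sums in both aged sums (24.4% of all genes were). Among 5 CA2 genes, Rgs14 and Amigo2 rose and Pcp4 and Necab2 fell. Pcp4 was at 284 and 147 CPM in adult and at 68.1 and 41.5 CPM in aged band spots. Of 9 interneuron genes, Gad1 rose and Sst, Pvalb and Reln fell, and Ramp3 fell among 4 thalamic genes, Ttr among 2 choroid plexus genes and both globin genes tested (Hbb-bs by 2.37 and Hba-a2 by 2.12 on the log2 scale, with -1.73 for Hbb-bs without aged section 1 and -4.17 and -3.14 for both without aged section 2, and with Hbb-bs not called by DESeq2). Sst (-0.25) and Pvalb (0.02) were not called without adult section 2, and Pvalb not without aged section 2 (-0.57). For both genes the adult and aged sums overlapped, Pvalb being at 82.8 and 193 CPM in adult and 96.5 and 73.0 CPM in aged band spots. Reln lost the call without P21 section 1 (-1.22), adult section 1 (-0.86), adult section 2 (-1.57) or aged section 2 (-0.98), Ramp3 (-1.45 and -1.15) and Necab2 (-0.56 and -0.39) without adult section 1 or aged section 2 (with Ramp3 at -3.82 without aged section 1), and Mpped1 without adult section 1 (-0.97), adult section 2 (-1.34) or aged section 2 (-0.93). Rgs14 (0.82) was not called without adult section 2, and Amigo2 (0.55 to 0.85) not without any 1 of P21 section 1, P21 section 2, adult section 1, adult section 2 and aged section 1. Fibcd1 (-2.61) was not called without adult section 1 (-2.42), adult section 2 (-2.84), aged section 1 (-2.52) or aged section 2 (-2.72). How far RNA of neighbouring tissue entered these changes was not tested. Of the 288 genes that fell in the aged band, 71.9% had a lower adult level in the band than in the rest of the section. The share was 58.3% of the 345 that rose and 59.9% of all genes tested.

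Whether the age changes of the band differed from those elsewhere was tested as a difference of changes. In aged vs. adult, 140 of 10854 genes (1.29%) changed differently in the band and in the rest of the section, 69 of them toward higher (0.636%) and 71 toward lower levels (0.654%) in the band. With plain library sizes in place of TMM factors the counts were 36 and 92. Without adult section 1 the counts were 3 and 19, without adult section 2 they were 10 and 32, without aged section 1 they were 262 and 139, and without aged section 2 they were 118 and 118. The 5 genes with the smallest p, Cog5, Gap43, Nectin3, Serpina3n and Calb1, passed under every alternative tried for them, leaving out each section included.

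Nectin3, a gene of the score that had no part in the choice of the band, passed the test of a different change in the band and in the rest of the section but did not pass that against CA1 and DG. It was at 191 and 198 CPM in adult and 199 and 221 CPM in aged band spots, and at 40.4 and 41.7 and then 22.7 and 23.3 CPM in the rest of the section (chromosome 16, 46387706 to 46498525, GRCm38). The change in the band itself did not pass (log2 change 0.11 ± 0.12 (SE, n = 2 per age), adjusted p = 0.623 by edgeR), and the difference from the rest was 0.96 ± 0.12 (SE, adjusted p = 3.03e-06 by edgeR). In CA1 it was at 23.3 and 34.0 and then 25.7 and 24.5 CPM and in DG at 15.6 and 6.06 and then 17.0 and 12.1 CPM, where the ages overlapped, and the difference of the band from CA1 and DG was 0.05 ± 0.28 (SE, adjusted p = 0.985 by edgeR). In P21 vs. adult the log2 change of Nectin3 in the band was -0.30 and also did not pass (adjusted p = 0.29 by edgeR). Prss23 was at 65.7 and 60.4 CPM in adult and 63.3 and 67.8 CPM in aged band spots, and did not pass in either comparison. Iyd and Coch did not enter the test. Iyd had a UMI in 75 and Coch in 22 of the 142 band spots, and Iyd in 907 of all 20336 spots.

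Cog5, which encodes a subunit of a Golgi tethering complex (chromosome 12, 31654869 to 31937630, GRCm38), rose in the aged band from 110 and 120 to 209 and 196 CPM, while the rest of the section went from 56.4 and 57.1 to 41.8 and 46.9 CPM. The difference was 1.17 ± 0.13 (SE, adjusted p = 3.42e-07 by edgeR). Gap43 fell in the band and was at 614 and 717 and then 803 and 684 CPM in the rest, where the ages overlapped (difference -1.29). Calb1 gave a difference of -3.21. Serpina3n rose less in the band than in the rest, where it went from 8.09 and 9.18 to 60.8 and 54.7 CPM (difference -1.80 ± 0.25 (SE)). Gfap also rose in both, and its difference passed (adjusted p = 0.0265 by edgeR).

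**Figure D5:**
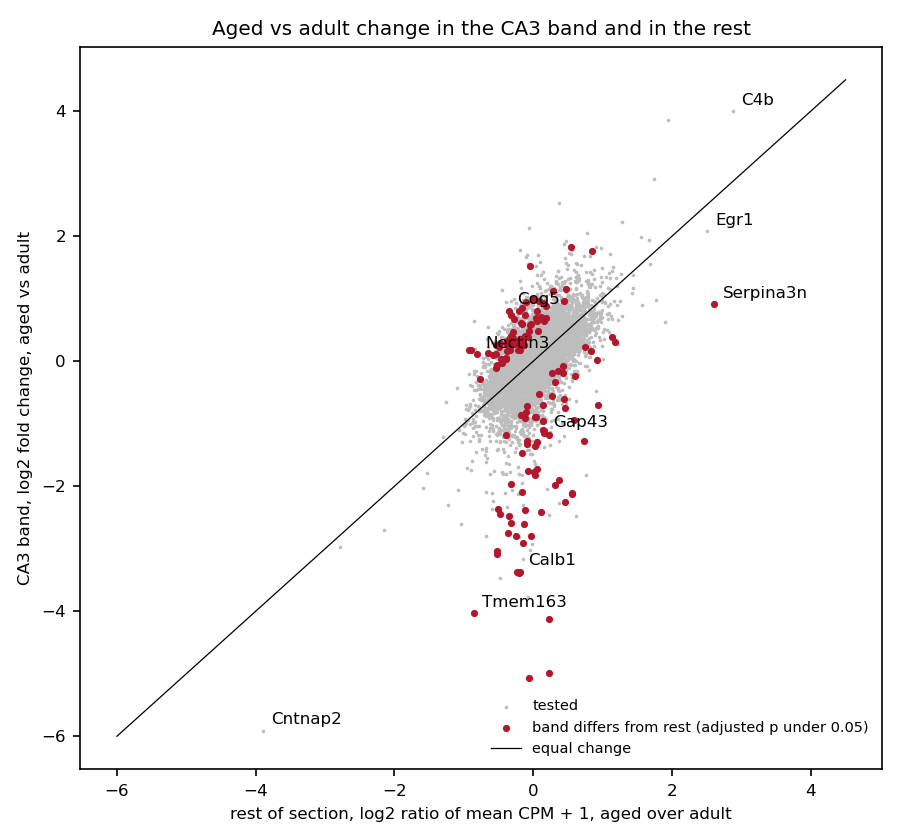
Log2 change from adult to aged in the band spots against that in the rest of the section, with 1 point per gene, red where the 2 changes differed at an adjusted p under 0.05, and with the 5 genes of the smallest p and C4b, Egr1, Tmem163 and Cntnap2 named. Cog5 and Nectin3 lie above the diagonal of equal change, and Calb1, Gap43 and Serpina3n lie below it.

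Against CA1 and DG spots, 48 of 10854 genes (0.442%) changed differently in the aged band, 28 toward higher (0.258%) and 20 toward lower levels (0.184%), or 13 and 24 with plain library sizes. Without adult section 1 the number was 3, without adult section 2 it was 6, without either P21 section it was 25, and without aged section 1 and aged section 2 it was 85 and 146. Calb1 (-3.54) and Cog5 (1.09) were again among the 5 with the smallest p, with Sst, Resp18 and Rgs2. Sst, the somatostatin gene of a class of interneurons, was at 139 and 332 CPM in adult and 154 and 83.4 CPM in aged band spots, where the ages overlapped, and at 154 and 118 and then 559 and 311 CPM in CA1. Its difference of -2.44 was -1.34 and not called without adult section 2, and -3.19 without adult section 1. Resp18 fell in the band from 62.8 and 75.2 to 36.7 and 25.9 CPM and was at 51.5 and 34.0 and then 123 and 96.4 CPM in CA1. Rgs2, a regulator of G protein signaling, rose in the band from 30.0 and 29.7 to 91.1 and 71.1 CPM. Leaving out adult section 2 ended the calls for Resp18 (-1.53) and Rgs2 (1.61), and leaving out adult section 1 those for Cog5 (0.93) and Rgs2 (1.33). The CA1 and DG spots were chosen by Fibcd1, Wfs1, Gpr161 and Ccn3 and by C1ql2, Dsp, Prox1 and Plk5.

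In P21 vs. adult, 12 of 10896 genes (0.11%) changed differently in the band and in the rest, 5 toward higher (0.0459%) and 7 toward lower levels (0.0642%) at P21, or 13 and 7 with plain library sizes. Without P21 section 1 or P21 section 2 the number was 0, without adult section 1 and adult section 2 it was 2 and 3, and without aged section 1 and aged section 2 it was 168 and 167. Mef2c, a transcription factor of neurons, was at 122 and 126 CPM at P21 and 78.6 and 66.7 CPM in adult band spots, and at 325 and 330 against 379 and 347 CPM in the rest (difference 0.94 ± 0.18 (SE, adjusted p = 0.00858 by edgeR)). Ddn, a dendritic protein gene, was at 484 and 477 against 454 and 438 CPM in the band and at 273 and 265 against 420 and 382 CPM in the rest (difference 0.70). Cpne7, 6330403K07Rik and Kndc1 had differences of -0.88, -0.91 and -0.78. Cpne7, a copine gene, was at 242 and 250 against 337 and 351 CPM in the band and at 127 and 139 against 89.4 and 111 CPM in the rest. Each of these 5 calls was lost when P21 section 1 was left out, with differences of 0.94, 0.69, -0.94, -1.0 and -0.62 for Mef2c, Ddn, Cpne7, 6330403K07Rik and Kndc1, and leaving out P21 section 2 or adult section 1 ended each of them too.

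Against CA1 and DG spots, 29 genes (0.266%) changed differently between P21 and adult, 6 toward higher (0.0551%) and 23 toward lower levels (0.211%) in the band at P21. Without P21 section 1, adult section 1 and adult section 2 the number was 1, 8 and 4, and without aged section 1 and aged section 2 it was 96 and 99. Stmn2, which encodes a microtubule regulator of growing axons (chromosome 3, 8509360 to 8561606, GRCm38), stayed at 2079 and 2236 CPM at P21 and 1904 and 2185 CPM in adults in the band, while in DG it was at 485 and 462 and then 121 and 117 CPM and in CA1 at 945 and 970 and then 674 and 727 CPM. The difference was -1.14 ± 0.13 (SE, adjusted p = 7.76e-07 by edgeR), and the call held without each section in turn. Fgfr1 (-1.08), Gng3 (-0.70), Sv2b (-1.0) and Penk (2.15) followed. Their calls were lost without P21 section 1, at differences of -1.07, -0.61, -0.92 and 2.0, and those of Gng3 (-0.67), Sv2b (-1.0) and Penk (1.82) without adult section 2. Penk, the proenkephalin gene, was at 28.5 and 27.2 CPM at P21 and 18.6 and 10.6 CPM in adults in the band, and at 63.5 and 58.8 and then 131 and 124 CPM in CA1.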

How the data were processed

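Spatial transcriptomes of FFPE brain sections were measured with Visium mouse probe sets. The deposited values are raw counts of UMIs per gene and spot, which the authors made with Space Ranger on mm10 (GRCm38). The file headers give version 2.0.0 for P21 and adult and 3.1.1 for aged sections, while the submitters' processing notes list Space Ranger 2.1.0 and Seurat 5.1.0. Sections held 42422997 to 106783660 UMIs. Spots under 500 UMIs (12 in all) were left out, and 11 symbols occurred more than once.

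Counts were summed per section over each spot set and fitted with the quasi-likelihood test of edgeR 4.0.16 in R 4.3.3, with TMM factors and age as the factor over all 6 sums. Genes needed a UMI in 10% of spots and had to pass filterByExpr, and the files hold 19465 genes. A gene was called at a Benjamini-Hochberg adjusted p under 0.05 and a fold over 1.5. Differences between spot sets were fitted over 24 sums (6 sections and 4 spot sets) with the section as a block and called on adjusted p alone. The 11 genes that chose the band stayed out of its tests, as did the 4 genes of the score out of those of the score spots. DESeq2 1.42.0, other filters, other shares of spots, thinning and leaving out each section were alternatives.

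The members and the 39 gene lists (359 genes, of which 6 were not found in the files) were chosen with earlier results of these data known, and the band was added after the data were seen. Genes were named by rule as the 10 largest rises and 10 largest falls per comparison among called genes whose sections did not overlap and whose mean was at least 10 CPM, the 5 smallest p of each difference, and the called genes of each list with the largest change. With counts drawn from the sums and 100 genes each changed 2-fold or 4-fold in P21 vs. adult, 11% and 79% were called in the score spots (7793 genes) and 62% and 93% in the band spots (9815 genes), with 3.23% and 3.73% of calls false. Each age had 2 sections, so that few animals stand behind the p-values. The spread they rest on was estimated by edgeR over all sums of a fit and shared across genes. It is therefore not the spread of a gene between the 2 animals of an age. A few genes that the rule named are not reported here. Replicate numbers did not pair the sections.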

Additional observations from a re-analysis of the deposited data

Results flagged for a closer look

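The results here were picked because a test of the difference between the age changes of 2 spot sets passed. Each value below is the log2 change against adult in the score or band spots minus that in the other spots. All were called by edgeR at an adjusted p under 0.05, and the part of RNA from neighbouring tissue was not tested.

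In aged vs. adult, 3 genes differed between the score spots and the CA1 and DG spots, Ngef (-1.44), Gad2 (-2.09) and Kcnma1 (1.11). In the band spots 140 genes differed from the rest of the section, led by Cog5 (1.17), Gap43 (-1.29), Nectin3 (0.96), Serpina3n (-1.8) and Calb1 (-3.21), and 48 genes differed from CA1 and DG, led by Calb1 (-3.54), Sst (-2.44), Cog5 (1.09), Resp18 (-1.79) and Rgs2 (1.48).

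In P21 vs. adult, 12 genes of the band spots differed from the rest of the section, led by 6330403K07Rik (-0.91), Cpne7 (-0.88), Ddn (0.7), Kndc1 (-0.78) and Mef2c (0.94). Another 29 differed from CA1 and DG, led by Stmn2 (-1.14), Fgfr1 (-1.08), Gng3 (-0.7), Sv2b (-1) and Penk (2.15).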

How the results depend on the processing

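In the score spots, the numbers of genes called were unstable. In P21 vs. adult (0 genes), DESeq2 gave 1, no filter 27, the top 1% of spots 27, a score without Nectin3 1 and the band 189, and leaving out 1 section gave 0 to 66. In aged vs. adult (1 gene), DESeq2 gave 2, no filter 61, the top 0.5% of spots 0, the top 1% 49, spots with a neighbour in the set 0, the replicate block 0 and the band 633, and leaving out 1 section gave 0 to 620. Differences from the rest of the section went from 0 to 12 in the band for P21 (0 to 2 without 1 section). For aged mice they went from 0 to 1 with plain library sizes, with the top 0.5% and without Nectin3, to 13 with the top 1% and to 140 in the band (0 to 439 without 1 section). Differences from CA1 and DG went for P21 from 0 to 1 with the top 0.5%, 11 with the top 1%, 2 with neighbouring spots, 27 without Nectin3 and 29 in the band (0 to 73 without 1 section), and for aged mice from 3 to 1 with plain library sizes, 22 with the top 1%, 0 with neighbouring spots, 12 without Nectin3 and 48 in the band (0 to 319 without 1 section).

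In the band spots, the 189 genes of P21 vs. adult became 67 by DESeq2, 28 by a test against the fold itself (glmTreat), 100 with the top 0.5%, 354 with the top 1% and 31 without pooling over neighbours, and 53 to 278 without 1 section. The 633 genes of aged vs. adult became 187 by DESeq2, 56 by glmTreat, 340 when thinned to 503322 UMIs per sum and 954 without pooling, and 265 to 683 without 1 section. Differences from the rest moved for P21 from 12 to 20 with plain library sizes, 3 with the top 0.5%, 45 with the top 1% and 0 without pooling (0 to 168 without 1 section), and for aged mice from 140 to 894 without pooling (22 to 401 without 1 section). Differences from CA1 and DG moved from 29 to 14 (1 to 99 without 1 section) and from 48 to 718 without pooling (3 to 146 without 1 section). The share of higher genes was 73.5% at P21 and 83.2% with plain library sizes, and in aged mice 54.5% and 47.9%.

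The replicate number as a block gave 178 genes at P21 (131 higher) and 625 in aged mice (338 higher) in the band. Deviations of same-numbered sums correlated at -0.00486 to -0.0464 there, so that the numbers name the sections only. Of 46 named genes called at P21, 9 kept the call under every alternative and 19 without each section, and of 65 in aged mice, 15 and 31 did. In the aged band 4 signs turned, for Gad1 (-0.0271), Vegfa (-0.2595) and Pmch (1.6232) without pooling and for Pvalb (0.0161) without adult section 2, with a range of -1.1987 to 0.0161 for Pvalb over the sections left out. The cause was not tested. In simulated counts 2-fold changes were seldom called in the score spots, whose spread between sections was larger than that of the band. The 2 sections per age and unstated section levels limit all comparisons, and the slide version and probe design limit the aged comparisons.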

Other observations

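Further values of single genes in the band spots follow. Qdpr, which encodes dihydropteridine reductase of tetrahydrobiopterin recycling, was at 151 and 132 CPM at P21, 291 and 256 CPM in adults and 149 and 167 CPM in aged mice. It fell against adult in both comparisons, by 0.92 and 0.78 on the log2 scale (adjusted p = 1.56e-04 and 1.61e-04 by edgeR), which share the adult sections, and both calls held without each section in turn. Tmem163, a zinc transporter gene, was at 84.0 and 101 CPM at P21, 22.9 and 30.7 CPM in adults and 2.37 and 0.94 CPM in aged mice, and neither of its calls was lost when a section was left out. Nrp1, a receptor gene of semaphorins, was at 65.7 and 71.0 CPM in adults and 120 and 111 CPM in aged mice and was not called without adult section 1 (0.70) or adult section 2 (0.81). Mt2 was at 324 and 323 CPM in aged against 247 and 166 CPM in adult band spots and was not called without adult section 2 (0.38).

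Corticosteroid receptors and their target genes (0 of 8) and cholesterol synthesis genes (0 of 14) gave no call in either comparison by edgeR. Among the first, Fkbp5, a glucocorticoid target, was at 66.6 and 62.1 CPM at P21, 80.0 and 65.7 CPM in adults and 76.9 and 68.8 CPM in aged mice, so that the ages overlapped. Homeostatic microglia genes gave 0 of 6 calls at P21, and hilar mossy cell genes 0 of 2 and endothelial genes 0 of 5 in aged mice.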
